A study of Rattus norvegicus with 3 samples.

Results

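The mitochondrial chromosome of the rat is a small circular genome with its own transcription. All 37 genes that the deposited tables place on it were taken, chosen by position alone, out of 30957 genes listed. They comprise 13 protein-coding genes, 2 ribosomal RNA genes and 22 transfer RNA genes. The tables name the protein-coding genes and give the others clone-based identifiers without a description, so these were classed by length: 22 genes of 100 bp or less as tRNA genes, and the remaining pair as the smaller (AY172581.9, 958 bp) and the larger (AY172581.24, 1571 bp) rRNA gene. Transfer RNA genes are named here by identifier and by their neighbours, and not by amino acid.

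RNA was sequenced from motor cortex taken from 3 animals (Sprague-Dawley rats, male, numbered 19, 35 and 70) after cerebral ischemia and reperfusion, in which the brain loses its blood supply and then regains it. The animals form 1 group with the time label 8 weeks, which the labels do not define further, and no control animals were analysed here. The labels give neither the vessel nor the duration of the ischemia. Levels are in FPKM, the number of fragments scaled to gene length and to library size, and wherever 3 values follow each other they belong to rats 19, 35 and 70 in that order.

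As background, the mitochondrial chromosome encodes subunits of complexes I, III and IV of the respiratory chain and of the ATP synthase, together with the RNAs of the mitochondrial ribosome. Long transcripts that cover nearly the whole of each strand are cut, mostly at the tRNAs that lie between the other genes, into separate RNAs. Most genes are read from the heavy-strand promoter, while the transcript from the light-strand promoter gives the ND6 mRNA and a minority of the tRNAs. Most mitochondrial mRNAs are polyadenylated; mitochondrial rRNAs carry short tails, the ND6 mRNA is known to lack a long tail, and mature tRNAs end in CCA. Neurons depend on oxidative phosphorylation, to which the encoded subunits belong. Genes on the plus strand of the deposited coordinates are called heavy-strand genes below and those on the minus strand light-strand genes.

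Depth was sufficient to count every protein-coding and rRNA gene with a small counting error. All but 1 of the values above 0 of short genes outside the mitochondrial chromosome in each library (424 of 425, 396 of 397 and 390 of 391) were within 0.05 of a whole multiple of 1 fragment, which gave effective library totals of 15560000, 16460000 and 16050000 fragments after the authors' normalization. With the unit found there, all 23, 19 and 21 mitochondrial values above 0 and under 2000 fragments came out within 0.05 of a whole number. The mitochondrial genes held 2318036, 1418766 and 1774791 fragments. Of the tRNA genes, 8 are on the light strand, with 46, 9 and 32 fragments in all, so most single genes of that group rest on a few fragments. The 12 heavy-strand tRNA genes below the 2 highest had 88 in all in rat 35, so many of them also rest on few there.

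Of all FPKM summed in a library, 31.7%, 19.0% and 26.2% belonged to the mitochondrial genes (25.6 ± 6.36, SD, n = 3). Short abundant genes weigh heavily in that sum. As a share of fragments, the values were 14.9%, 8.62% and 11.1% of the effective total (11.5 ± 3.16, SD, n = 3). Rat 35 was lowest and rat 19 highest on either scale. The marker genes of the tissue's cells differed between the same animals: all 10 neuronal markers were lowest in rat 35 (36.5% of the 14134 genes with a mean of 1 FPKM or more were), with a summed level of 1602, 68.1 and 2240 FPKM, and all 8 microglia and phagocyte markers were highest there (45.4% of all genes were), with 1055, 9476 and 1132. None of these 18 markers was at 0. Of the neuronal markers, 9 were highest in rat 70, against 29.8% of all genes. All 4 endothelial markers found were highest in rat 35, as were the 3 red blood cell markers with a mean of 1 FPKM or more, against 45.4%. Summed levels of the 6 astrocyte markers were 2799, 875 and 1664 FPKM, of the 6 oligodendrocyte markers 4031, 3305 and 5447 and of the 5 fibroblast markers 232, 2612 and 210.5, with Col1a2 of the fibroblast list at 0 in every rat. Rat 35 was lowest in 4 of the 6 astrocyte markers and in 4 of the 6 oligodendrocyte markers, against 36.5% of all genes. Aqp4 and Aldh1l1 of the astrocyte list were lowest in rat 70, and Mog and Mobp of the oligodendrocyte list in rat 19. The part of these differences in the mitochondrial levels was not tested, and in tissue samples fewer cells of a type cannot be told apart from less RNA per cell.

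Among the protein-coding genes, the subunits of complex IV, cytochrome c oxidase, were the most abundant set. Mt-co1, which encodes the catalytic subunit COX1 (chromosome MT, 5323 to 6867, plus strand, Rnor 6.0), was at 25852, 16214 and 18161 FPKM (20075 ± 5096, SD, n = 3). Mt-co2, whose product receives electrons from cytochrome c, was at 22882, 12949.6 and 15491 (17107 ± 5159.5). Mt-cox3, the third core subunit gene, was at 24401, 16876 and 18862 (20046 ± 3899.96). All 3 genes were highest in rat 19 and lowest in rat 35, with a highest over lowest ratio of 1.59, 1.77 and 1.45. Mt-co1 alone took 26.8%, 29.1% and 25.4% of all mitochondrial fragments. The order of Mt-co1 and Mt-cox3 was not stable, since their log2 ratio was -0.08, 0.06 and 0.05, whereas Mt-co2 stood below Mt-co1 in every rat (-0.18, -0.32 and -0.23).

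Cytochrome b, the only mitochondrially encoded subunit of complex III (Mt-cytb, 14136 to 15278, plus strand), was at 13285, 8346 and 10945 FPKM (10859 ± 2471, SD, n = 3). Its rank lay below the complex IV genes and above every complex I gene in all 3 rats. Rat 35 was lowest, 1.59-fold under rat 19.

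The 7 complex I genes encode membrane subunits of NADH dehydrogenase, and they were spread over the widest range of levels. Mt-nd1 (2740 to 3694, plus strand) was at 10797, 6537 and 9225 FPKM and Mt-nd2 (3904 to 4942, plus strand) at 11442, 5879 and 9665. These neighbours could not be ordered, as their log2 levels differed by -0.00 on average with an SD of 0.13. Mt-nd4l was at 10554, 6235 and 7126, Mt-nd5 at 4287, 2703 and 3707 and Mt-nd3 at 3003, 2034 and 1975. Mt-nd3 was the only protein-coding gene whose lowest value was not in rat 35, and its values in rats 35 and 70 were nearly equal. Mt-nd4 (10160 to 11537, plus strand) was at 3446, 1517 and 1822 (2262 ± 1037, SD, n = 3), and its 2.27-fold range was the widest of the 12 heavy-strand mRNAs. It stood apart in rat 19, which exceeded rat 70 by 1.89-fold, against 1.13- to 1.52-fold for the other heavy-strand mRNAs.

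Mt-nd6, the single protein-coding gene of the light strand (13543 to 14061, minus strand), was far below the rest. It was at 65.5, 17.7 and 49.1 FPKM (44.1 ± 24.3, SD, n = 3), on 529, 151 and 409 fragments (exact Poisson 95% intervals 485 to 576, 128 to 177 and 370 to 451, which cover counting error only). The log2 ratio to its neighbour Mt-nd5, with which it overlaps by 23 bp on the opposite strand, was -6.01, -7.18 and -6.21. Relative to the mean log2 level of the 6 heavy-strand complex I genes it was -6.55, -7.57 and -6.49. Rats 19 and 70 were thus close together and rat 35 was lower, with a range of 1.08, which without rat 35 was 0.05. The labels do not say whether the counting used strand, so fragments of the antisense strand cannot be told apart from those of Mt-nd6.

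Both ATP synthase genes lie on a shared stretch, Mt-atp8 (7758 to 7961) ending inside Mt-atp6 (7919 to 8599), and they encode membrane subunits of the proton channel part of the enzyme. Mt-atp8 was at 29555, 16763 and 19906 FPKM (22075 ± 6666, SD, n = 3) and Mt-atp6 at 4742, 3546 and 4179.96 (4156 ± 598). The values thus differed by a log2 ratio of 2.64, 2.24 and 2.25, although these genes are known to share 1 mRNA. In fragments, Mt-atp8 held 93826, 56289 and 65175 and Mt-atp6, which is longer, 50250, 39746 and 45686. The overlapping pair Mt-nd4l and Mt-nd4, also known to share an mRNA, differed by 1.61, 2.04 and 1.97 per length, while per fragment Mt-nd4 was the higher of the pair. The labels do not say how the authors assigned fragments in the overlaps, and the level of a single gene in these pairs is uncertain.

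Ordered by mean FPKM, the protein-coding and rRNA genes ran from Mt-atp8 through Mt-co1, Mt-cox3, Mt-co2, Mt-cytb, Mt-nd2, Mt-nd1, Mt-nd4l, Mt-atp6 and Mt-nd5 to the rRNA genes, Mt-nd3, Mt-nd4 and Mt-nd6. Neighbours in this order that did not differ beyond their spread over the rats were Mt-co1 and Mt-cox3, Mt-nd2 and Mt-nd1, Mt-nd1 and Mt-nd4l (0.16 ± 0.19, log2, SD, n = 3), Mt-nd5 and the smaller rRNA gene (0.72 ± 0.98), the larger rRNA gene and Mt-nd3, and Mt-nd3 and Mt-nd4 (0.11 ± 0.31). The widest step was the one from Mt-nd4 to Mt-nd6 (5.74 ± 0.58). The position of the rRNA genes in the order differed between the rats, since in rat 35 both lay below Mt-nd4 and in rats 19 and 70 both lay above it.

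**Figure D1:**
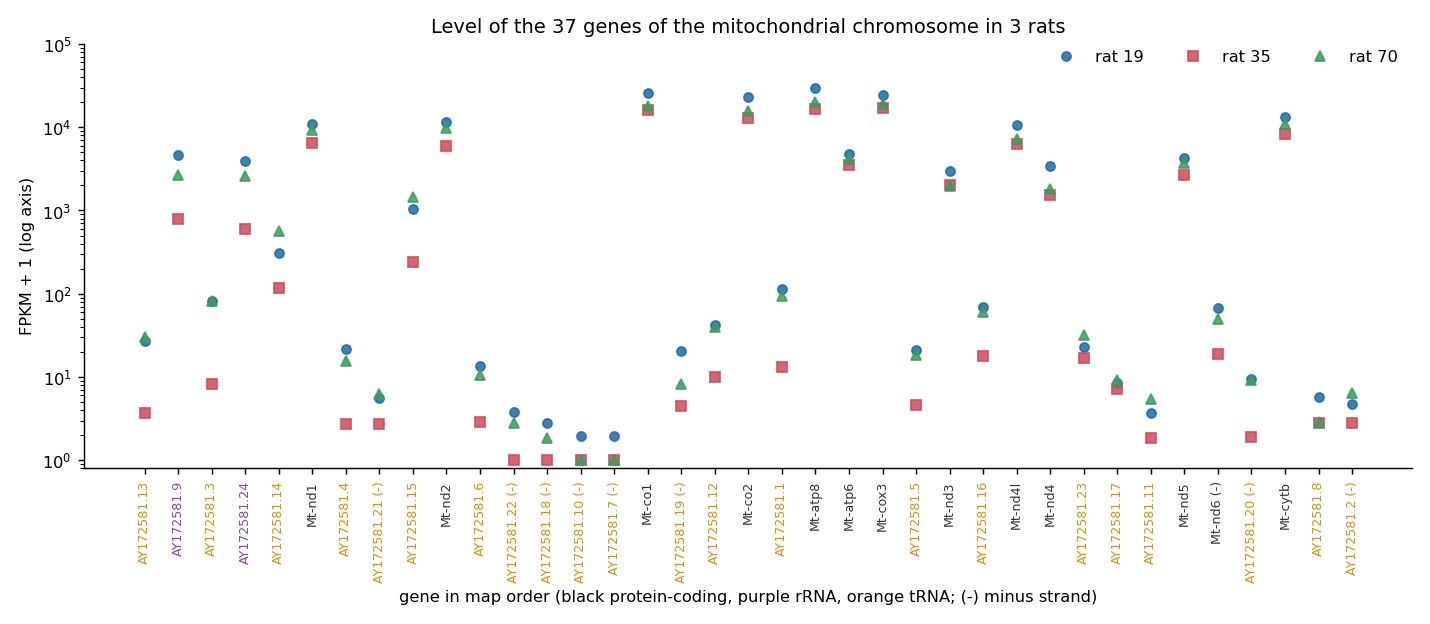
FPKM + 1 on a log axis for each of the 37 mitochondrial genes in map order; each point is 1 rat. Protein-coding genes other than Mt-nd6 lie close together across the 3 rats, while rat 35 falls well below rats 19 and 70 at both rRNA genes, at Mt-nd6 and at most tRNA genes.

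The rRNA genes differed between the rats far more than the mRNAs. The smaller rRNA gene, AY172581.9 (68 to 1025, plus strand), was at 4659, 779.9 and 2656 FPKM (2698 ± 1940.1, SD, n = 3). The larger, AY172581.24 (1094 to 2664, plus strand), was at 3944, 601 and 2565 (2369.8 ± 1680.1). Rat 19 exceeded rat 35 by 5.97- and 6.56-fold and rat 70 exceeded rat 35 by 3.41- and 4.27-fold. The 2 rRNAs kept close to each other, with a log2 ratio of the larger to the smaller of -0.24, -0.38 and -0.05. Against the 12 heavy-strand mRNAs they stood at -1.27, -3.19 and -1.55, a 3.77-fold range of the ratio, which without rat 35 shrank to 0.28 on the log2 scale. The rRNA genes held 7.16%, 1.96% and 5.94% of all mitochondrial fragments (exact binomial 95% intervals 7.12 to 7.19, 1.94 to 1.98 and 5.91 to 5.98, for counting error only). How mRNA was separated from total RNA is not stated in the labels, and tail length was not measured, so its part in the rRNA and tRNA values was not tested. The tRNA genes span 60 to 75 bp, and the part of so short a length in their values was not tested either.

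Transfer RNA genes were low with 2 exceptions, both on the heavy strand and both directly upstream of an mRNA. That position was not particular to them. AY172581.5 and AY172581.11, picked after their values were seen, lie 0 bp before Mt-nd3 and Mt-nd5 on the heavy strand. They were low, at 19.8, 3.57 and 17.4 FPKM and at 2.72, 0.855 and 4.39. AY172581.15 (3835 to 3903), which ends 0 bp before Mt-nd2, was at 1047, 240.4 and 1466 FPKM on 1124, 273 and 1623 fragments. AY172581.14 (2665 to 2739), which lies 0 bp from the larger rRNA gene and from Mt-nd1, was at 306, 117 and 573 on 357, 145 and 690. Unlike all mRNAs and rRNAs, these were highest in rat 70. The next tRNA gene, AY172581.1 between Mt-co2 and Mt-atp8, was at 111, 12.3 and 92.5. AY172581.3, which fills the space between the rRNA genes, was at 81.3, 7.15 and 80.6, and rats 19 and 70 were nearly equal there. Its 86, 8 and 88 fragments give exact Poisson 95% intervals of 68.8 to 106, 3.45 to 15.8 and 70.6 to 108, so rat 35 lay below both others beyond counting error.

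The remaining tRNA genes named by level were also lowest in rat 35, by less next to Mt-nd4. AY172581.16, between Mt-nd3 and Mt-nd4l, was at 68.0, 17.0 and 59.6 FPKM, and AY172581.12, before Mt-co2, at 40.6, 8.93 and 38.5. AY172581.13, the first gene of the map, was at 25.9, 2.72 and 28.8, on 27, 3 and 31 fragments. AY172581.23, which follows Mt-nd4 directly, was at 21.7, 16.1 and 31.2, on 23, 18 and 34 fragments whose intervals overlap between all rats. Its neighbour AY172581.17, picked after its values were seen, had 7, 6 and 8 fragments and showed no difference detectable at this depth. The 14 heavy-strand tRNA genes summed to 1914, 506 and 2728 fragments, or to 433, 88 and 415 without the top 2. The 8 light-strand tRNA genes had 46 (exact Poisson 95% interval 33.7 to 61.4), 9 (4.12 to 17.1) and 32 (21.9 to 45.2). The highest of these 8 by mean FPKM, AY172581.19 between Mt-co1 and AY172581.12, had 21 (12.999 to 32.1), 4 (1.09 to 10.2) and 8 (3.45 to 15.8) fragments. There the intervals of rats 19 and 35 did not overlap, while that of rat 70 overlapped both. The intervals do not allow for the choice of this gene after its values were seen. Of the same set, AY172581.22, AY172581.18, AY172581.10 and AY172581.7, (like AY172581.19 picked after their values were seen) lie together between Mt-nd2 and Mt-co1 and had at most 3 fragments in any rat, and all 4 were at 0 in rat 35, which by the one-sided limit for a count of 0 allows up to 3 fragments each.

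Counted over the classes, a difference of more than 2-fold between the highest and the lowest rat, on the FPKM + 1 scale, was found in 42.5% of the 14134 genes with a mean of 1 FPKM or more. Of the mitochondrial genes, 34 reached that mean. More than 2-fold apart were 2 of 13 protein-coding genes (Mt-nd4 and Mt-nd6), 2 of 2 rRNA genes and 17 of 19 tRNA genes. Without rat 35, these numbers were 0, 0 and 2, and without rat 19 only Mt-nd6 remained among the protein-coding genes. Several of the 17 tRNA genes rest on few fragments, such as AY172581.11 with 3, 1 and 5, whose intervals overlap between all rats. Of the 6 tRNA genes with 10 or more fragments in every rat, 5 were more than 2-fold apart. With the libraries scaled to a common sum outside the mitochondrial chromosome, 5 protein-coding genes were more than 2-fold apart, with Mt-nd2 (2.23-fold), Mt-co2 (2.03-fold) and Mt-atp8 (2.02-fold) joining Mt-nd4 and Mt-nd6. Genes of 1 chromosome share their transcripts and are not independent, and the shares of the classes were not tested against that of all genes. Rat 35 was lowest in 33 of the 34 genes, against 36.5% of all genes, and rat 19 was highest in 26, against 24.8%. The other 8, all tRNA genes, were highest in rat 70, against 29.8% of all genes. Of these 8, only AY172581.14 and AY172581.15 had exact Poisson 95% intervals that did not overlap between rats 19 and 70.

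Rat 19 exceeded rat 35 by more than 2-fold in 20 of the 34 genes, against 14.3% of all genes, and rat 70 exceeded rat 35 in 18, against 17.0%. Between rats 19 and 70, 2 of the 34 passed, both tRNA genes higher in rat 19, a share near the 6.11% of all genes. None was more than 2-fold higher in rat 70, against 4.84%. The 2 were AY172581.19, on 21 and 8 fragments, and AY172581.8, on 5 and 2. At both, the exact Poisson 95% intervals of rats 19 and 70 overlapped. Over the 12 heavy-strand mRNAs, the median fold of rat 19 over rat 35 was 1.62 (1.34 to 2.27) and of rat 70 over rat 35 was 1.19 (0.971 to 1.64). Over the 6 tRNA genes with 10 or more fragments in every rat, the highest over lowest ratio ran from 1.94 to 9.03, with a median of 4.71. As a median deviation from the 3-rat mean of log2(FPKM + 1), the 13 protein-coding genes were at 0.39, -0.36 and -0.07 (the last turning to between 0.02 and 0.03 under 3 other scalings of the libraries), the rRNA genes at 1.12, -1.52 and 0.40 and the tRNA genes at 0.70, -1.18 and 0.54. All genes with a mean of 1 FPKM or more were at 0.02, 0.06 and -0.09.

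**Figure D2:**
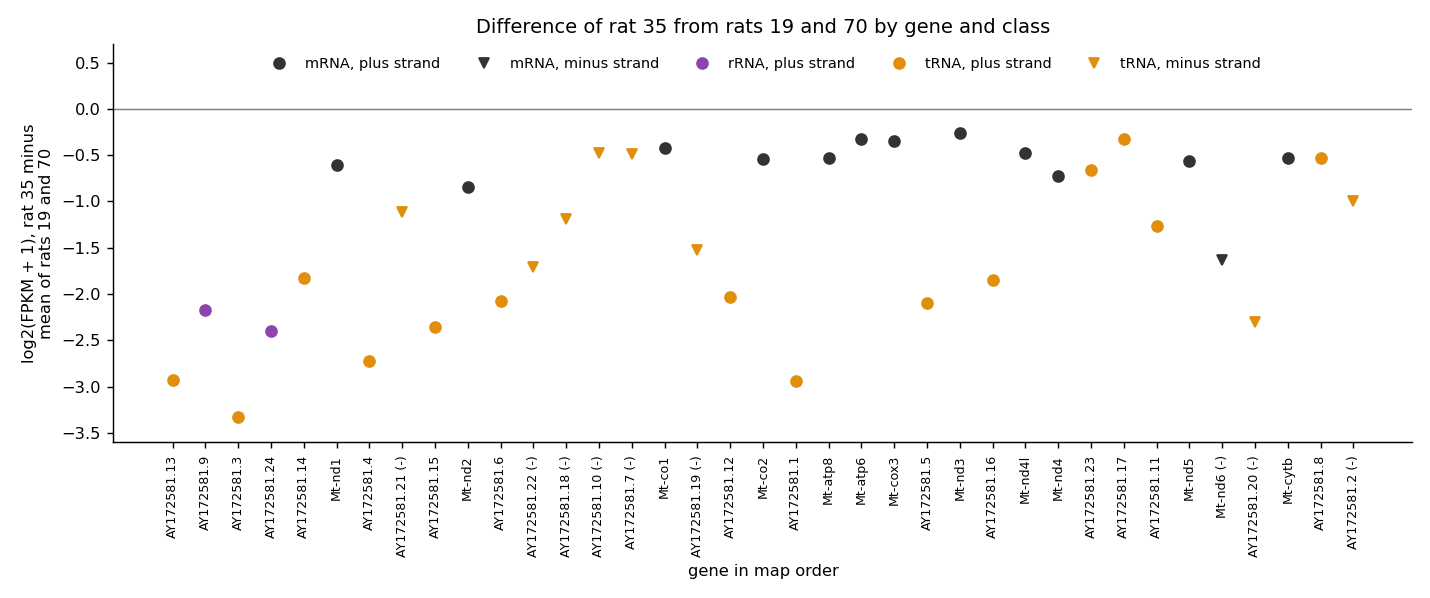
Difference in log2(FPKM + 1) between rat 35 and the mean of rats 19 and 70 for each mitochondrial gene in map order, coloured by class and shaped by strand; 0 means no difference. Heavy-strand mRNAs lie between -0.84 and -0.26, Mt-nd6 at -1.63, the rRNA genes at -2.17 and -2.40, and the tRNA genes between -3.33 and -0.33.

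Short genes elsewhere in the genome were most often lowest in rat 70. The set held 120 genes outside the mitochondrial chromosome of 100 bp or less and with a mean of 1 FPKM or more. Of these, 63 (52.5%) were more than 2-fold apart, against 42.5% of all genes. Their median deviations were 0.27, 0.16 and -0.44. The lowest value was in rat 35 in 28 genes, against 36.5% of all genes, and in rat 70 in 86, against 44.2%. The 19 mitochondrial tRNA genes at that mean had 0.71, -1.23 and 0.61, and all 19 were lowest in rat 35. This set of short genes was chosen after the tRNA values were seen.

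Ratios between classes within a library hardly depend on how the libraries are scaled, and 14 were computed. An exact permutation test that flips the sign of each rat's ratio (two-sided) cannot give a p under 0.25 with 3 rats, and 13 of the ratios had that value (Benjamini-Hochberg adjusted p = 0.269), having the same sign in 3 of 3 rats. The ratio of Mt-cox3 to Mt-co1 had an exact permutation p of 1. Between the complexes the ratios moved by at most 0.20. Complex IV exceeded the heavy-strand complex I genes by 1.97, 2.10 and 1.95 (log2; 2.01 ± 0.08, SD, n = 3), complex III exceeded them by 1.09, 1.23 and 1.28, and complex IV exceeded complex III by 0.87, 0.87 and 0.67 (0.81 ± 0.12). Between classes and strands they varied more: heavy-strand tRNAs stood at -8.18, -9.37 and -7.73 against heavy-strand mRNAs (-8.42 ± 0.84), and light-strand tRNAs at -2.96, -2.49 and -3.43 against heavy-strand tRNAs (-2.96 ± 0.47), the latter with values near 0 that the added 1 FPKM compresses. By position, Mt-nd1 and Mt-nd2, which follow the rRNA genes, exceeded the mean of the later Mt-nd3, Mt-nd4l, Mt-nd4 and Mt-nd5 by 1.26, 1.21 and 1.60. The higher value in rat 70 was not shared by all 4 later genes. With the median heavy-strand mRNA deviation subtracted, Mt-nd1, Mt-nd2 and Mt-nd5 stood at 0.18, 0.24 and 0.17 in rat 70. On that scale Mt-nd3, Mt-nd4l and Mt-nd4 stood at -0.13, -0.04 and -0.13, and the last 2 overlap.

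**Figure D3:**
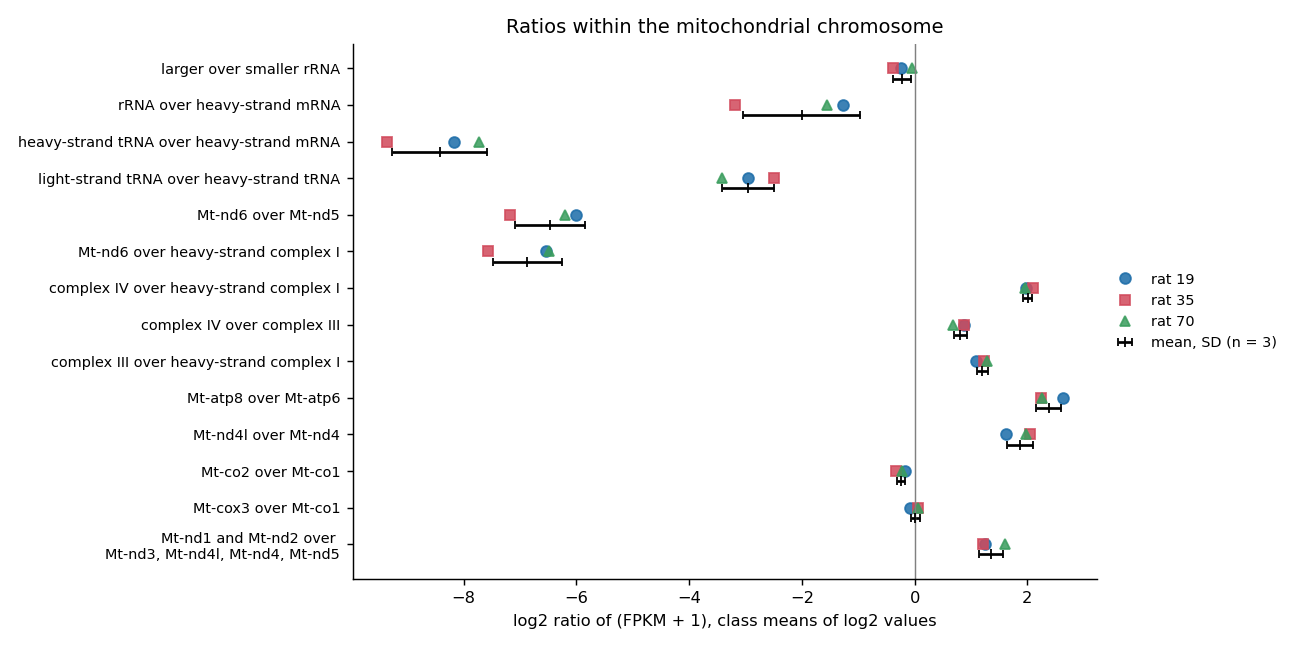
Log2 ratios between classes, complexes, strands and neighbouring genes of the mitochondrial chromosome; coloured points are single rats, and black bars give the mean and SD over 3 rats. Ratios between complexes agree within 0.20 across rats, whereas the ratio of rRNA to heavy-strand mRNA spans 1.91 and that of Mt-nd6 to Mt-nd5 spans 1.17.

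Subunits of the respiratory complexes that the nucleus encodes were seldom more than 2-fold apart. Of 79 listed nuclear subunit genes of complexes I to IV and the ATP synthase, 71 were found and 69 had a mean of 1 FPKM or more. On the FPKM + 1 scale, only 1 of the 69 (1.45%) was more than 2-fold apart, against 42.5% of all genes. This was Cox6a2, at 3.38, 1.023 and 1.97 FPKM. In FPKM alone Cox4i2 was also past 2-fold, at 3.35, 3.86 and 1.89. The median nuclear level per complex was 71.3, 62.3 and 68.3 FPKM for complex I, 95.8, 86.3 and 111 for complex III, 205, 178 and 184 for complex IV and 159.9, 163 and 139.5 for the ATP synthase. Complex II has no mitochondrial gene, and its 4 nuclear genes had median deviations of -0.11, 0.13 and -0.01 (log2). Of these 4 genes, 3 were highest in rat 35, against 45.4% of all genes. Cox4i1, a structural subunit of complex IV, was at 482, 428 and 467, Ndufb8 of complex I at 143, 150.5 and 167, and Atp5b, the catalytic beta subunit of the ATP synthase, at 490.4, 455 and 612. Genes with the largest SD of their lists varied more. Ndufs4 of complex I was at 63.0, 34.5 and 57.8 and Sdha of complex II at 87.4, 82.4 and 134.9. Uqcr10 of complex III was at 95.3, 134.8 and 71.4 and Atp5e of the ATP synthase at 229, 213 and 139. The mitochondrial median was 60.1, 43.4 and 54.3 times the nuclear one for complex I and 119, 91.3 and 98.8 times for complex IV.

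The excess of the mitochondrial over the nuclear genes fell in the same order of rats, 19, 70 and 35, for all 4 complexes with mitochondrial genes. Mitochondrial minus nuclear deviations were 0.24, -0.21 and 0.09 (log2) for complex I, 0.26, -0.28 and -0.00 for complex III, 0.25, -0.12 and -0.10 for complex IV and 0.27, -0.21 and 0.03 for the ATP synthase. Complex IV differed by only 0.03 between rats 35 and 70. The range over the rats was 0.45 for complex I (0.15 without rat 35 and 0.31 without rat 19) and 0.54 for complex III (0.27 and 0.28). It was 0.38 for complex IV (0.35 without rat 35 and 0.03 without rat 19) and 0.49 for the ATP synthase (0.24 and 0.25). Complex III rests on the single gene Mt-cytb. With 1 group there is no test between rats.

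**Figure D4:**
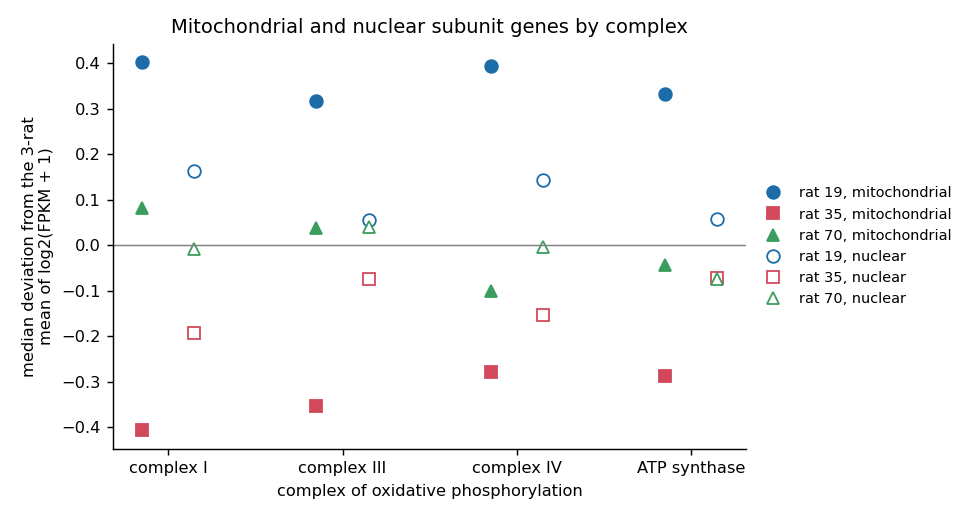
Median deviation from the 3-rat mean of log2(FPKM + 1) for the mitochondrial (filled) and nuclear (open) subunit genes of each complex; each point is 1 rat. Complex II, which has no mitochondrial subunit, is not drawn. In these 4 complexes rat 19 lies above and rat 35 below 0 for both kinds, with mitochondrial deviations of 0.32 to 0.40 in rat 19 against 0.05 to 0.16 for nuclear ones.

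The nucleus encodes the proteins that copy mitochondrial DNA and that transcribe, cut and use its RNA. Over 6 lists of such genes and their regulators, 70 of 74 were found, 69 had a mean of 1 FPKM or more and 6 (8.70%) were more than 2-fold apart, against 42.5% of all genes. Without rat 35 or without rat 70, that number was 3. Of 9 mitochondrial transcription genes, 6 were lowest in rat 35, against 36.5% of all genes. Polrmt, the mitochondrial RNA polymerase, was at 10.3, 7.95 and 9.08 FPKM, Tfam, which packages the DNA and activates its promoters, at 19.4, 20.9 and 15.95, and the initiation factor gene Tfb2m at 9.45, 6.41 and 8.59. Mterf, which encodes a termination factor that binds downstream of the rRNA genes, was at 12.8, 10.04 and 6.06. Its relative Mterfd3 had the largest SD of that list, at 6.97, 1.62 and 2.28, and was the 1 gene of the list more than 2-fold apart on the FPKM + 1 scale; Mterf was at 1.95-fold on that scale and 2.11-fold in FPKM.

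Of 18 RNA processing and decay genes found, 10 were lowest in rat 70, against 44.2% of all genes, and 9 were highest in rat 35, against 45.4%. The only 1 more than 2-fold apart was Rexo2, which degrades short RNA remnants, at 39.6, 62.1 and 24.9 FPKM. Hsd17b10, a subunit of the enzyme that cuts the 5′ ends of mitochondrial tRNAs, was at 41.3, 59.97 and 41.6, and Fastk at 43.3, 36.4 and 42.3. Pnpt1, the polynucleotide phosphorylase of mitochondrial RNA decay, was at 11.9, 10.5 and 6.32, and the helicase gene Dhx30 at 29.1, 22.7 and 37.8. Among the DNA replication genes, 7 of 9 were highest in rat 35, against 45.4% of all genes, with the single-strand binding protein gene Ssbp1 at 24.6, 40.4 and 21.1 and Primpol at 1.80, 5.69 and 1.204. None of 18 mitochondrial aminoacyl-tRNA synthetase genes was more than 2-fold apart on the FPKM + 1 scale; in FPKM alone Yars2 was, at 4.36, 2.06 and 3.27. Kars, at 51.4, 68.8 and 51.5, serves the cytosol as well, and Wars2 was at 3.15, 6.08 and 3.12. Of the tRNA modification genes, Trit1 was at 19.1, 14.95 and 7.99.

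Regulators of mitochondrial biogenesis did not share an order. Ppargc1a, a transcriptional coactivator that promotes biogenesis of mitochondria, was at 3.87, 1.31 and 9.47 FPKM and was lowest in rat 35, while the nuclear receptor gene Esrra was at 13.1, 14.4 and 16.2. Of the 6 regulators, 4 were highest in rat 35, against 45.4% of all genes.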

How the data were processed

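RNA of the motor cortex was sequenced in 3 rats of 1 group, taken as separate animals because the labels number them. Per the labels, the authors counted fragments per gene, normalized them and deposited FPKM; HISAT2 2.0.4, StringTie 1.3.0 and Rnor 6.0 appear in the submitters' processing notes without roles. The labels do not say how mRNA was selected, whether strand was used or how fragments in overlaps were assigned, and nuclear copies of mitochondrial DNA may share fragments with the genes.

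FPKM was used as deposited, as log2(FPKM + 1) over genes with a mean of 1 or more, in Python 3.11.15 with scipy 1.17.1. The worth of 1 fragment was fitted to genes of 150 bp or less outside the mitochondrial chromosome, with the span as length; 424 of 425, 396 of 397 and 390 of 391 values above 0 came out whole within 0.05. The unit was also tested on simulated data. Fragments per gene are FPKM times span over that unit. List members absent under current or older symbols were left out.

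Named genes: all mRNA and rRNA genes, the 8 tRNA genes with the highest mean FPKM and, per nuclear list, those with the highest mean FPKM and the largest SD (3 each for transcription and for RNA processing), a selection of which is given. The members and lists were chosen with earlier results of these data known. Sequences of the mitochondrial genes are not shown.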

Additional observations from a re-analysis of the deposited data

How the results depend on the processing

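Of 249 alternative values of 38 results, 233 stayed within the spread between rats, kept the sign of a tested ratio or, for counts, stayed within 1.5 times the reported one. The share of fragments in place of FPKM gave 14.9%, 8.62% and 11.1%. Rescaling to a common sum outside the mitochondrial chromosome moved the median gene by 0.05, -0.15 and 0.10 (log2, rats 19, 35 and 70) and raised the protein-coding genes more than 2-fold apart from 2 to 5, adding Mt-nd2, Mt-co2 and Mt-atp8. The median deviation of the mRNAs in rat 70, -0.07 as deposited, changed sign to between 0.02 and 0.03 under the 3 scalings and ranged from -0.20 to 0.13 when a rat was left out, and under the scalings Mt-nd3 was lowest in rat 35. Leaving out each rat gave 0 to 2 protein-coding, 0 to 2 rRNA and 2 to 16 tRNA genes more than 2-fold apart, 3 to 4 machinery and regulator genes, and a log2 ratio of Mt-cox3 to Mt-co1 of -0.014 to 0.056, which covers 0 and reversed the sign without rat 35 and without rat 70. Machinery and regulator genes were 3 at a mean FPKM of 5 or more. Fragments per gene in place of FPKM reversed the ratios of the larger to the smaller rRNA (0.49), of Mt-nd4l to Mt-nd4 (-0.34) and of Mt-cox3 to Mt-co1 (-0.97), because the length is then not divided out. Ratios without the overlapping genes or the sparse tRNA genes, added after seeing the data, kept their signs. Without a pseudocount, no light-strand tRNA ratio could be had, as some are at 0. No paired analysis was possible because there is 1 group. Depth limits the light-strand tRNA genes, with 9 fragments in all in rat 35. It also limits many heavy-strand tRNA genes, which without the top 2 had 88 in all in that rat.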
